A study of Mus musculus with 6 samples.

Results

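The genes described here are 10 enzymes and helper proteins that turn arachidonic acid into eicosanoids, chosen by symbol and matched to Ensembl identifiers: 10 of the 55487 genes in the count files. The leukotriene branch is Alox5, Alox5ap, Lta4h and Ltc4s (4 genes), and the prostanoid branch is Ptgs1, Ptgs2, Tbxas1, Hpgds, Ptges and Hpgd (6 genes). Of the 10, 9 passed the expression filter (above 1 CPM, that is counts scaled to a common library total, in at least 4 of the 6 libraries) and were tested with 11429 genes in all, whereas Ptgs2 did not.

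The study compared microglia that lack REV-ERBα, a heme-binding nuclear receptor of the circadian clock that represses transcription, with microglia that keep it. Microglia were grown from the cortex of P1 to P3 pups carrying floxed Nr1d1, the gene of REV-ERBα (Nr1d1 fl/fl), on a C57/Bl6J background. The Cre+ group (3 libraries) also carried CAG::CreERT2, and the Cre- group (3 libraries) were littermates without it. Both groups received 1.5 μM of 4-OHT (4-hydroxytamoxifen) for 2 days according to the labels, while the methods state a shorter exposure for cultures of this line, so the groups differed in Cre and shared the floxed allele and the drug. The CAG promoter is active in most cell types and so does not restrict Cre to microglia, which were shaken off a mixed glial culture after growth with GM-CSF. Nothing in the labels says whether the 3 libraries of a group came from separate pups, and p-values measure the spread between these libraries, which may be technical.

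Eicosanoids are short-lived lipid mediators made on demand from arachidonic acid that phospholipases free from membranes. In the leukotriene branch, 5-lipoxygenase makes leukotriene A4, which is either hydrolyzed to the chemoattractant leukotriene B4 or joined to glutathione to give the cysteinyl leukotrienes. In the prostanoid branch, a cyclooxygenase makes prostaglandin H2, and terminal synthases convert it to prostaglandin D2, prostaglandin E2 or thromboxane A2. Microglia and other macrophages carry both branches and are known for release of these mediators upon stimulation.

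Between Cre+ and Cre- microglia, 4 of the 9 tested genes differed: Hpgds rose, and Ltc4s, Ptges and Hpgd fell (adjusted p of at most 0.05, edgeR's quasi-likelihood test). Over all genes tested, 5.07% passed this test, 2.50% higher and 2.56% lower in Cre+. On group means of 3 libraries, Ltc4s fell by 24.9%, Ptges fell by 33.3%, Hpgd fell by 24.6% and Hpgds rose by 18.3%. Ltc4s and Hpgds stand in the heat map of the study, drawn from these same libraries, so their direction is not independent evidence. Ptges and Hpgd are not in it.

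For these 4 genes, the 250 bases upstream of each RefSeq start are given 5′ to 3′ on the strand of the gene (GRCm38.p6, sequences from RefSeq, with entries for 9 of the 10 genes and none for Alox5ap). Where transcription began in these cells was not measured. Capitals mark a GC box (GGGCGG or its reverse complement, CCGCCC, a binding site of SP1-type factors) or a PU.1 site (GAGGAAGT, the site of a factor that myeloid genes use). The windows lie at chr11:50238533-50238782 (minus strand) for Ltc4s, chr6:65144731-65144980 (minus) for Hpgds, chr2:30903298-30903547 (minus) for Ptges and chr8:56294302-56294551 (plus) for Hpgd. The Ptges window lies inside the Ensembl gene that was counted, and those of Ltc4s and Hpgds reach into theirs.
Ltc4s: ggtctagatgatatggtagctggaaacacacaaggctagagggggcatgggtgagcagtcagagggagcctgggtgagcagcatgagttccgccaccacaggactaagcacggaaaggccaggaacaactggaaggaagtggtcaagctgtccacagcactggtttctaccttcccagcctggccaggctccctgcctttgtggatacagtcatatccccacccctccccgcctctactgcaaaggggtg
Hpgds: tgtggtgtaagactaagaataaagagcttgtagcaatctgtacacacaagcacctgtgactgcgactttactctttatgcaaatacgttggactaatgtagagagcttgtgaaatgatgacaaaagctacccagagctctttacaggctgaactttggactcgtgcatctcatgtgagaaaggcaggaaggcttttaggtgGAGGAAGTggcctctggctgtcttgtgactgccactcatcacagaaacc
Ptges: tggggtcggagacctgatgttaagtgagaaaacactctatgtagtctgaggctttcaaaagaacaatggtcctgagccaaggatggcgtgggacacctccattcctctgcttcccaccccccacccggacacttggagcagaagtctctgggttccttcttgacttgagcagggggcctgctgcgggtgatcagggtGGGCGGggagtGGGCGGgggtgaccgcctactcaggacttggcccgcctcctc
Hpgd: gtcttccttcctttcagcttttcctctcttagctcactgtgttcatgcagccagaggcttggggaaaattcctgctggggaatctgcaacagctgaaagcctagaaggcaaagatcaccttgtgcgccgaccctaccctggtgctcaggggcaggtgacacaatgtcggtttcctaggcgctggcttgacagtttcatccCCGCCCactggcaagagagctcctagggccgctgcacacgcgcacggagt

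The window of Hpgds, the gene that rose, held the PU.1 site from 49 to 42 bases before the start. Of the 9 genes with an entry, Ptgs1 also had this site, whereas 2.44% of 32851 mouse promoter windows of the same length did. Ptges had a pair of GC boxes and Hpgd had a GC box. Such a box was present in 4 of the 9 genes (Ptgs2, Ptges, Alox5 and Hpgd) and in 32.7% of all windows. The window of Ltc4s held none of the 7 motifs searched on both strands. Tbxas1 alone had an AP-1 site (TGANTCA), a motif found in 6.75% of all windows. The nuclear receptor half-site AGGTCA, present in 14% of all windows, was in none of the 9. Neither were its longer forms with the flank that REV-ERB proteins prefer, ANTAGGTCA (0.548% of all windows) and ANTGGGTCA (0.664%), of which the first contains the half-site, nor the E-box CACGTG (6.02%). A match is only a description of these letters, and no match says only that they are not in this window.

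Library totals ranged from 87545868 to 93942161 counts in Cre- and from 93701215 to 110909129 in Cre+, and Ptges, the lowest of the 9 tested genes, had at least 495 counts in each library. Nr1d1 itself was at 2.35, 1.20 and 1.64 CPM in Cre- libraries 1, 2 and 3 and at 1.00, 0.95 and 1.08 CPM in Cre+ libraries 1, 2 and 3 (log2 fold change -0.77, standard error, SE, 0.25, adjusted p = 0.0945). The groups did not overlap, but the gene did not pass the test, and a count over the whole gene does not resolve the deleted exons. Its exons also share 263 of 3077 bases with Thra on the opposite strand (mean counts of 128 for Nr1d1 and 99.5 for Thra). Fewer genes had at least 1 count in Cre+ libraries (29941 to 30677) than in Cre- libraries (32587 to 35166), and ribosomal RNA took 0.791% to 1.12% of the counts in Cre+ and 1.22% to 1.27% in Cre-. Their part in the differences between the groups was not tested. The microglial marker Csf1r was at 413 CPM or more in every library, whereas the homeostatic markers P2ry12 (at most 0.998 CPM) and Tmem119 (at most 3.49 CPM) were low. Of the 10 microglial markers, 9 were tested and Itgam was called, at a log2 fold change of 0.18.

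**Figure D1:**
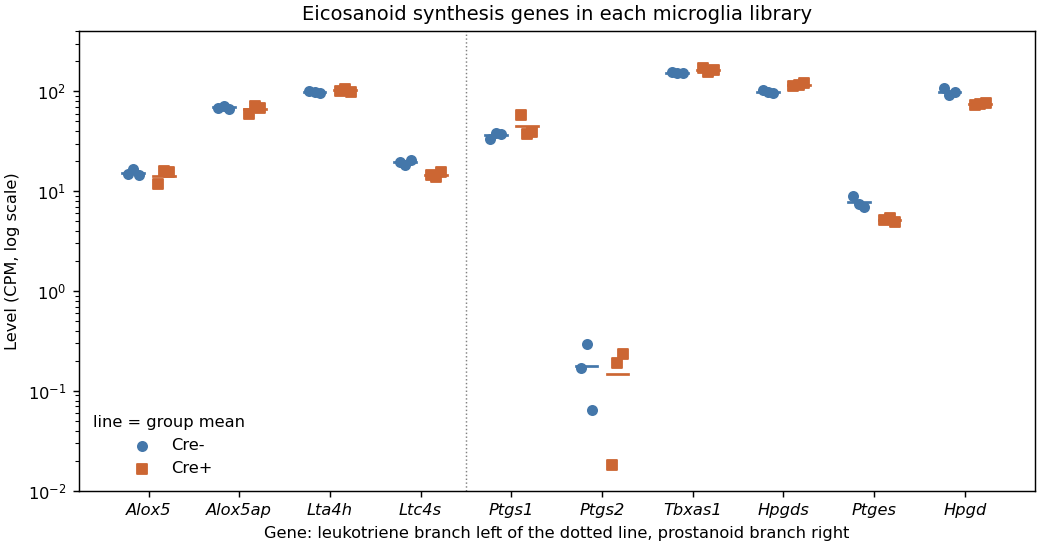
Level of each gene in CPM (log axis) in the 3 Cre- libraries (blue circles) and 3 Cre+ libraries (orange squares), with a line at the group mean. Ltc4s, Ptges and Hpgd lie lower and Hpgds lies higher in every Cre+ library, while Ptgs2 stays under 0.3 CPM in all 6.

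The entry enzymes of the leukotriene branch were at similar levels in both groups. Alox5 (ENSMUSG00000025701, chr6:116410077-116461178) encodes 5-lipoxygenase, which oxygenates arachidonic acid. It was at 14.8, 16.6 and 14.4 CPM in Cre- libraries 1 to 3 and at 11.8, 15.8 and 15.4 CPM in Cre+ libraries 1 to 3. Cre+ library 1 was the lowest of the 6, and the other two Cre+ libraries lay within the Cre- range. The difference, Cre+ over Cre-, was -0.09 on the log2 scale (SE 0.11, adjusted p = 0.745), and it turned to 0.03 without Cre+ library 1. Alox5ap (ENSMUSG00000060063, chr5:149264767-149288153) encodes FLAP, the membrane protein that presents arachidonic acid to 5-lipoxygenase. It was at 68.7, 72.1 and 67.1 CPM in Cre- and at 58.7, 70.8 and 68.8 CPM in Cre+ libraries. Again Cre+ library 1 was the lowest and the groups overlapped (log2 fold change -0.07, SE 0.07, adjusted p = 0.645; 0.01 without that library). The ratio of Alox5ap to Alox5 per length was 13.2 ± 0.498 in Cre- and 13.4 ± 0.813 in Cre+ libraries (SD, n = 3 each), with overlapping groups.

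At the branch point of leukotriene A4, the enzymes on its 2 exits differed in their values. Ltc4s (ENSMUSG00000020377, chr11:50236461-50238616), the leukotriene C4 synthase that commits it to the cysteinyl leukotrienes, was at 19.4, 18.2 and 20.7 CPM in Cre- and at 14.5, 13.7 and 15.6 CPM in Cre+ libraries. All 3 Cre+ libraries lay under all 3 Cre- libraries. The mean fell from 19.4 ± 1.24 to 14.6 ± 0.934 CPM (log2 fold change -0.41, SE 0.09, adjusted p = 0.0131). This call was lost without Cre- library 3 (-0.37, adjusted p = 0.0599) or without Cre+ library 2 (-0.37, adjusted p = 0.0594). Lta4h (ENSMUSG00000015889, chr10:93453411-93484875), the hydrolase that gives leukotriene B4, was at 101, 99.2 and 96.4 CPM in Cre- and at 102, 106 and 99.3 CPM in Cre+ libraries. Its groups overlapped and it did not pass the test (log2 fold change 0.05, SE 0.05, adjusted p = 0.614). Within a library, the ratio of Lta4h to Ltc4s per length was 0.847 ± 0.0667 in Cre- and 1.17 ± 0.114 in Cre+ (SD, n = 3 each), without overlap. Over the 4 genes of the branch the median log2 fold change was -0.08, beside 0.00 over all genes tested, with 1 gene lower and 0 higher.

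Exons of Ltc4s share 268 of 1014 bases with Gm26542 on the opposite strand, and the sources used here do not state whether counting used strand. Gm26542 had a mean of 40.8 counts beside 1609 for Ltc4s. Mast cells, basophils and platelets are other known sources of this enzyme. All 11 mast cell and basophil markers were under 1 CPM in every library, their sum was 0.511 to 0.834 CPM in Cre- and 0.207 to 0.332 CPM in Cre+, and Mcpt8 was at 0. All 7 platelet markers were likewise under 1 CPM (sums of 0.445 to 1.01 and 0.362 to 0.721 CPM, with Gp1bb at 0). The border-associated macrophage markers, 8 in number, summed to 150 to 154 CPM in Cre- and 149 to 180 CPM in Cre+. Of these 8 markers, 5 were under 1 CPM in every library, though none was at 0 throughout. The other 3 were tested, of which Mrc1 was higher (log2 fold change 0.47) and Pf4 lower (-0.79) in Cre+. Their part in the values of Ltc4s and Hpgds was not tested. As this is bulk RNA, fewer cells of a type and less RNA per cell cannot be told apart.

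The cyclooxygenases that open the prostanoid branch differed widely in level from each other. Ptgs1 (ENSMUSG00000047250, chr2:36230426-36252272), the constitutive cyclooxygenase, was at 33.3, 37.9 and 37.3 CPM in Cre- and at 57.5, 37.8 and 38.8 CPM in Cre+ libraries. Cre+ library 1 stood apart, and the other two lay at the upper end of the Cre- range or just above it. The difference of 0.31 on the log2 scale (SE 0.12, adjusted p = 0.178) went to 0.08 without that library. Ptgs2 (ENSMUSG00000032487, chr1:150100031-150108227), the inducible cyclooxygenase, had 15, 28 and 6 counts in Cre- and 2, 18 and 24 counts in Cre+ libraries, under 0.3 CPM throughout. The groups overlapped (two-sided exact permutation p = 0.8, n = 3 each, where 0.1 is the smallest p that 3 against 3 allows).

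Among the terminal synthases of this branch, the prostaglandin D2 synthase Hpgds and the membrane-bound prostaglandin E synthase Ptges moved in opposite directions. Hpgds (ENSMUSG00000029919, chr6:65117293-65144908), the glutathione-dependent hematopoietic prostaglandin D synthase, was at 102, 97.4 and 96.8 CPM in Cre- and at 114, 117 and 120.3 CPM in Cre+ libraries. All Cre+ libraries were above all Cre- libraries. The mean rose from 98.9 ± 3.04 to 117 ± 3.11 CPM (log2 fold change 0.24, SE 0.05, adjusted p = 0.00898), a call kept in all 13 alternative analyses. Ptges (ENSMUSG00000050737, chr2:30889471-30929863), the membrane-bound prostaglandin E synthase that often works with the inducible cyclooxygenase, was at 8.87, 7.47 and 6.93 CPM in Cre- and at 5.20, 5.40 and 4.91 CPM in Cre+ libraries. The groups did not overlap, though the Cre- libraries were more spread. The mean fell from 7.76 ± 0.998 to 5.17 ± 0.248 CPM (log2 fold change -0.58, SE 0.13, adjusted p = 0.0177). It no longer passed the test without Cre- library 1 (-0.48, adjusted p = 0.0769), Cre+ library 1 (-0.59, adjusted p = 0.0504) or Cre+ library 3 (-0.55, adjusted p = 0.0758). Tbxas1 (ENSMUSG00000029925, chr6:38875404-39084585), the thromboxane synthase, was at 155, 152 and 152 CPM in Cre- and at 170.2, 155 and 165 CPM in Cre+ libraries. Its groups did not overlap by a narrow margin, and it did not pass the test (log2 fold change 0.09, SE 0.05, adjusted p = 0.305). Stretches of at least 100 bases with at least 95% identity to its longest transcript occur in 76 other genes, the longest of them 124 bases. By this search Hpgds, Ptges, Hpgd and Ltc4s had none, though exons of Ltc4s overlap Gm26542, as given above. The effect of such stretches on the counts was not tested.

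The enzyme that ends prostaglandin action fell as well. Hpgd (ENSMUSG00000031613, chr8:56294585-56321043) is the dehydrogenase that oxidizes the 15-hydroxyl group of prostaglandins and so inactivates them. It was at 108, 90.9 and 98.0 CPM in Cre- and at 73.6, 73.9 and 76.5 CPM in Cre+ libraries. The lowest Cre- library was above the highest Cre+ library, and the Cre+ libraries were close together. The mean fell from 99.0 ± 8.67 to 74.7 ± 1.58 CPM (log2 fold change -0.41, SE 0.06, adjusted p = 0.00102), which was called in all 13 alternative analyses. Over the 5 tested genes of the prostanoid branch the median log2 fold change was 0.09, with 1 gene higher and 2 lower. Thus each branch held at least 1 called gene and genes that did not pass the test, and no test of a difference between the branches was made. In 5 of the 9 tested genes (Tbxas1 and the 4 called) the groups did not overlap, as in 24.0% of all genes tested.

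**Figure D2:**
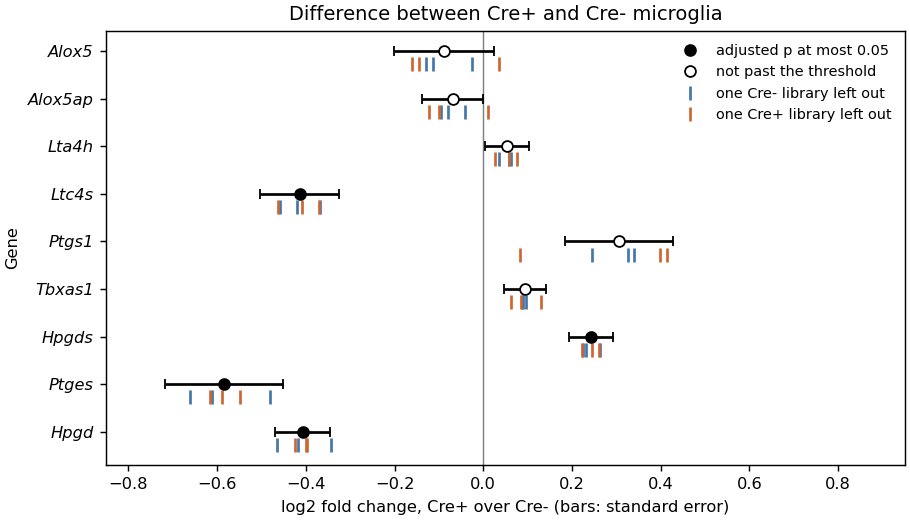
Log2 fold change of Cre+ over Cre- for the 9 tested genes (circles, filled where the adjusted p is at most 0.05; bars, standard error), with ticks for the value after leaving out one Cre- (blue) or Cre+ (orange) library. The Ptgs1 tick at 0.08 and the Alox5 tick at 0.03 are those without Cre+ library 1, and the ticks of Alox5 and Alox5ap lie on both sides of 0 while those of the other 7 genes stay on one side.

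Divided by gene length, taken as the bases of all annotated exons of a gene, levels could be ordered within a group. Which transcripts of a gene were present was not tested, so the order depends on the annotation. In Cre- libraries Hpgd was highest at 58.8 ± 5.15 CPM per kb, followed by Alox5ap at 48.8 ± 1.79 CPM per kb (SD, n = 3). These stood well apart from the rest. Ltc4s (19.2 ± 1.22), Tbxas1 (16.8 ± 0.137), Lta4h (16.2 ± 0.350) and Hpgds (15.4 ± 0.474 CPM per kb) came next, of which Lta4h and Hpgds overlapped. Then came Ptgs1 (9.31 ± 0.641), Alox5 (3.71 ± 0.279), Ptges (1.97 ± 0.254) and Ptgs2 (0.0389 ± 0.0255 CPM per kb), each below its neighbour in all libraries. In Cre+ libraries Alox5ap (46.5 ± 4.59) and Hpgd (44.4 ± 0.937 CPM per kb) overlapped at the top. As in Cre-, the others were far lower. Hpgds (18.2 ± 0.484) stood in place 3, overlapping Tbxas1 (18.0 ± 0.857), which overlapped Lta4h (16.8 ± 0.583 CPM per kb). Ltc4s (14.4 ± 0.921 CPM per kb) moved from place 3 to place 6, where it overlapped Ptgs1 (11.5 ± 2.85 CPM per kb). Alox5, Ptges and Ptgs2 kept the last places.

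Ratios of 2 genes within a library do not depend on the library total. The ratio of Hpgds to Ptges per length was 7.06, 7.98 and 8.55 in Cre- and 13.4, 13.2 and 15.0 in Cre+ libraries, 1.76 times higher on group means. The ratio of Hpgds to Hpgd was 0.248, 0.281 and 0.259 in Cre- and 0.406, 0.413 and 0.412 in Cre+ libraries, 1.56 times higher. Ltc4s to Hpgds went from 1.25 ± 0.0938 to 0.790 ± 0.0389 and Tbxas1 to Ptges from 8.62 ± 1.00 to 13.7 ± 1.14 (SD, n = 3 each). None of these ratios overlapped between the groups. Every pair holds a called gene, while Tbxas1 was not called. The ratios thus mostly restate those calls on a scale free of the library total and are given without a test.

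**Figure D3:**
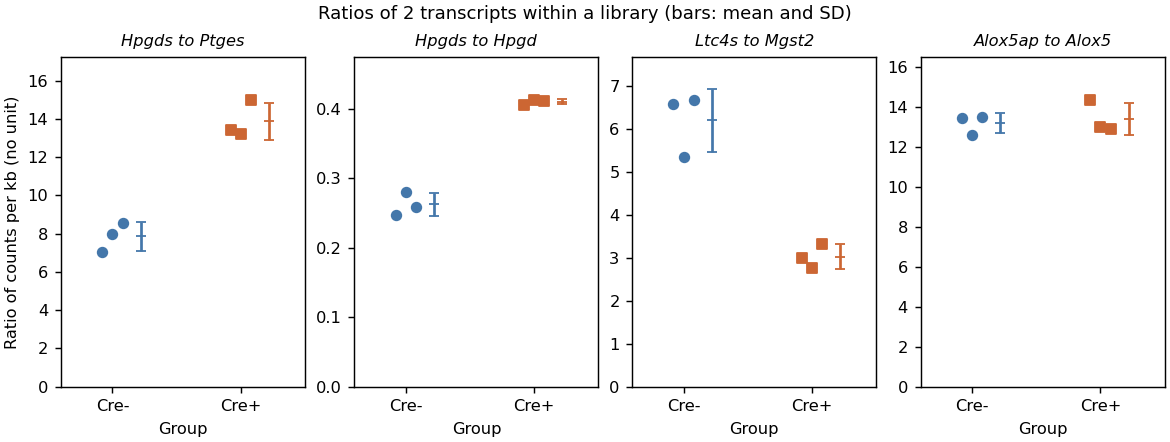
Ratios of counts per kb of a pair of genes within each library (y axis, no unit; x axis, group), with points for the 3 libraries and a bar for the mean and SD. Hpgds to Ptges and Hpgds to Hpgd lie higher and Ltc4s to Mgst2 lies lower in all Cre+ libraries, while Alox5ap to Alox5 overlaps.

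The wider pathway was read from 80 further genes, of which 39 passed the filter. Of these, 3 rose (Mgll, Acsl4 and Mgst2) and 4 fell (Lpcat2, Lpcat3, Cbr1 and Cbr3), 7 in all or 17.9%, beside 5.07% of all genes tested. Mgll, Mgst2, Lpcat2, Lpcat3 and Cbr1 were drawn in the study's heat map, so this count is not independent of these libraries. The median log2 fold change was -0.02. The groups did not overlap in 16 of the 39, beside 24.0% of all genes tested.

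Around the supply of arachidonic acid, the release list (9 tested of 21) had 1 gene higher and 0 lower, and the reacylation list (7 of 8) had 1 higher and 2 lower. Mgll, the monoacylglycerol lipase that frees arachidonic acid from its glycerol ester, rose from 270 ± 5.10 to 318 ± 8.75 CPM (log2 fold change 0.24, adjusted p = 0.00379). Pla2g15, the lysosomal phospholipase with the highest level per length in the release list, was at 209.7 ± 11.5 and 214 ± 7.71 CPM and did not pass the test (adjusted p = 0.798). Acsl4, which couples arachidonic acid to coenzyme A and was the most abundant of its list per length, rose from 129 ± 2.26 to 153 ± 10.7 CPM (log2 fold change 0.24, adjusted p = 0.0147). That call was lost without Cre- library 1 (0.23, adjusted p = 0.0522) or Cre+ library 1 (0.19, adjusted p = 0.0687). Of the acyltransferases that return acyl chains to phospholipids, Lpcat2 fell from 32.6 ± 0.318 to 24.4 ± 1.52 CPM (log2 fold change -0.42, adjusted p = 0.00262) and Lpcat3 from 67.5 ± 1.65 to 58.1 ± 2.70 CPM (-0.22, adjusted p = 0.0362). Lpcat3 was called in 5 of 13 alternative analyses. Without any 1 library other than Cre+ library 1 it did not pass (log2 fold changes of -0.23 to -0.19, adjusted p of 0.0655 to 0.130). Nor did it pass edgeR's test with no expression filter (adjusted p = 0.368), the filterByExpr filter (0.121) or a replicate block (0.0797). Its exons share 334 of 3268 bases with Emg1 on the opposite strand, a gene of similar mean count (5723 beside 5968).

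Among the other leukotriene enzymes and transporters (7 tested of 11), 1 rose and 0 fell. Mgst2, a microsomal glutathione transferase that can also make leukotriene C4, was at 10.8, 12.4 and 11.3 CPM in Cre- and at 17.6, 18.2 and 17.1 CPM in Cre+ libraries. It rose without overlap (log2 fold change 0.61, SE 0.09, adjusted p = 9.87e-04), opposite in direction to Ltc4s. The ratio of Ltc4s to Mgst2 per length was 6.57, 5.35 and 6.67 in Cre- and 3.00, 2.75 and 3.33 in Cre+ libraries, 0.489 of the Cre- mean. Per length, Ltc4s stayed the more abundant of the pair in all 6. In CPM, without division by length, Mgst2 was the higher in every Cre+ library (Ltc4s at 14.5, 13.7 and 15.6 CPM) and Ltc4s in every Cre- library. Mgst3, a related transferase and the most abundant of the list, was at 163 ± 3.51 and 170.0 ± 3.27 CPM (adjusted p = 0.520). None of the 6 other lipoxygenases passed the filter, and the highest of them per length, Alox8, was at 0.137 to 0.713 CPM.

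Of the other prostanoid enzymes and transporters (11 tested of 14), 0 rose and 2 fell. Both are carbonyl reductases, a class that includes enzymes able to reduce prostaglandin E2 at its keto group. Cbr1 fell from 76.5 ± 1.59 to 44.5 ± 2.83 CPM (log2 fold change -0.78, adjusted p = 8.17e-07) and Cbr3 from 23.9 ± 2.44 to 19.1 ± 0.169 CPM (-0.32, adjusted p = 0.0394). Cbr1 was called in all 13 alternative analyses and Cbr3 in 6, the latter not without Cre- library 2 or any 1 of the Cre+ libraries (log2 fold changes of -0.33 to -0.23, adjusted p of 0.101 to 0.169). Cbr3 also did not pass edgeR's test with no expression filter (adjusted p = 0.121), the filterByExpr filter (0.0892) or a replicate block (0.0690). Ptges3, the cytosolic prostaglandin E synthase and co-chaperone that was highest per length in this list, was at 158 ± 18.3 and 178 ± 2.01 CPM (log2 fold change 0.16, adjusted p = 0.182), while the membrane-bound Ptges fell. Ptgds, the other prostaglandin D2 synthase, was under 0.07 CPM in every library, which leaves Hpgds as the D2 synthase above the filter. The epoxide hydrolase Ephx1, tested alone of its list of 6, had a log2 fold change of -0.13 (adjusted p = 0.219).

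No receptor passed the test. Cysltr1, a receptor of cysteinyl leukotrienes and the single leukotriene receptor of 5 above the filter, was at 5.76 ± 0.317 and 5.82 ± 0.759 CPM (adjusted p = 0.972). Of the 9 prostanoid receptors 3 were tested, and Ptgir, the prostacyclin receptor and the highest of them, was at 93.8 ± 6.95 and 83.1 ± 4.40 CPM (log2 fold change -0.17, adjusted p = 0.124).

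**Figure D4:**
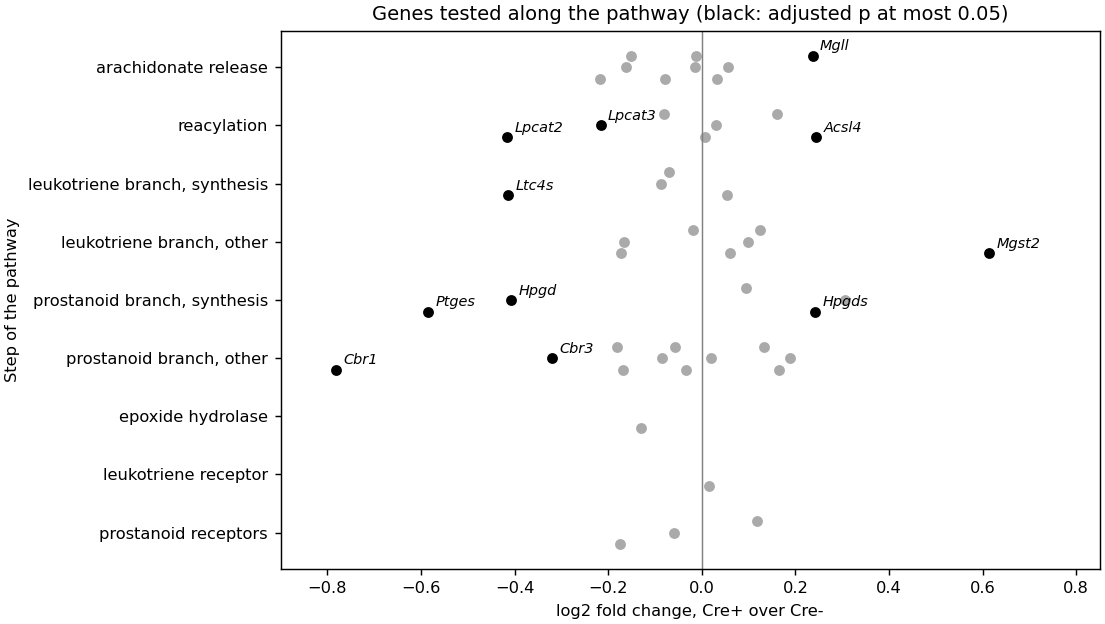
Log2 fold change of Cre+ over Cre- (x axis) for each tested gene, by step of the pathway (y axis; vertical offsets within a step only separate points), black where the adjusted p is at most 0.05. The 11 black points are the 4 of the 9 synthesis genes and the 7 of the 39 further genes that were called, and they lie on both sides of 0.

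The 6-library pattern of Ltc4s and of Hpgds was compared with 8445 genes of at least 5 CPM on average, by the root mean square difference of log2 CPM centred on each gene's mean. Nearest to Ltc4s were Ilkap, a phosphatase that binds integrin-linked kinase (difference 0.0376, log2 fold change -0.46), the zinc finger factor Maz (0.0525, -0.38) and Mafk, a small MAF protein (0.0554, -0.39). Nearest to Hpgds were Supt7l, a subunit of a SAGA-type complex (0.0145, 0.24), and Zc3h7a (0.0278, 0.22). With 6 libraries such nearness is a description of these values alone.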

How the data were processed

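RNA of cultured microglia (6 libraries, 3 Cre- and 3 Cre+) was sequenced by the authors from SMARTer-amplified cDNA. The counts, as deposited, are whole reads per Ensembl gene on GRCm38. The processing notes name STAR 2.7.9a and featureCounts 2.0.3 (the methods name older versions). The authors also deposited CPM (counts over the library total) and FPKM (CPM over gene length), which were read only to check units.

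Biotypes and coordinates came from GENCODE M21 (55227 of 55487 genes matched by identifier). The 356 ribosomal RNA genes were removed, a gene had to exceed 1 CPM in 4 or more libraries, and edgeR 4.0.16 (TMM normalization, quasi-likelihood test, no covariates, Benjamini-Hochberg adjustment over 11429 genes, threshold 0.05) was run in R 4.3.3. CPM values use TMM library sizes, except for genes below the filter, which use library totals. The common dispersion was 0.01, a coefficient of variation of 10% between libraries. Libraries of a group differed by a chi-square of 13.1 to 18.1 per degree of freedom, so no library was a copy of another.

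Alternatives were DESeq2 size factors, library totals, no filter, filterByExpr, voomWithQualityWeights (limma 3.58.1, the test of the study), DESeq2 1.42.0, a replicate block, and leaving out each library. Similar transcripts were searched with blastn 2.17.0. The 10 genes, lists and ratios were chosen with earlier results of these data known. The genes named are the 10 synthesis genes, Nr1d1, further pathway genes that passed the test, the most abundant gene of each list per length, Mgst2, Ptgds and the nearest genes to Ltc4s and Hpgds. A marker and a nearest gene are not reported here. Markers and genes on the opposite strand are named only beside a result they touch. Tables used pandas 2.3.3 and numpy 2.4.6 in python 3.11.15, and figures matplotlib 3.10.9.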

Additional observations from a re-analysis of the deposited data

How the results depend on the processing

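Of the 10 synthesis genes, the number called was 4 in every alternative that kept all libraries, except 5 with no expression filter, where Ptgs1 was added (log2 fold change 0.38, adjusted p = 1.85e-04). Leaving out 1 library gave 3 to 4 of them called, 5 to 6 genes of the wider pathway, and 321 to 435 of all genes in place of 579 (337 without Cre- library 3, 382 without Cre+ library 2 and 321 without Cre+ library 3). All genes called numbered 1528 with no filter (851 higher, 677 lower, median of all genes shifted to -0.20) and 886 with DESeq2. The median of the prostanoid branch was -0.017 with no filter and -0.052 with filterByExpr, settings that by construction add Ptgs2 to it. The median of the leukotriene branch ran from -0.14 to 0.02 when 1 library was left out. Alox5 and Alox5ap, neither called, changed sign: Alox5 ran from -0.16 to 0.035 and Alox5ap from -0.12 to 0.010 when 1 library was left out, both highest without Cre+ library 1, and Alox5ap was 0.0090 with no filter, above that shifted median. The cause of these changes was not tested.

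Same-numbered libraries did not deviate together (correlations of 0.0144, -0.0205 and -0.0445), so the numbers were taken not to pair them. With a replicate block, 4 of the 10, 5 genes of the wider pathway (without Lpcat3, adjusted p = 0.0797, and Cbr3, adjusted p = 0.0690) and 430 of all genes were called. Without division by gene length, Tbxas1 would make up 25.6% rather than 8.85% of the summed level of the 10 genes in Cre-, and Alox5ap 11.6% rather than 25.7%. At the depth of these libraries Ptgs2, with 2 to 28 counts each, could not be compared closely.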

Other observations

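Of the 80 further pathway genes, 41 lay below the expression filter, among them the 6 other lipoxygenases, 4 of 5 leukotriene receptors and 6 of 9 prostanoid receptors. In 8 of these 41 (19.5%) every Cre+ library was below every Cre- library, and in 0 every Cre+ library was above. Among all 32413 genes below the filter with a count, the Cre+ libraries lay below in 4311 (13.3%) and above in 449. Beside this, genes below the filter held 0.336% to 0.444% of the counts in Cre- and 0.270% to 0.285% in Cre+ libraries. Its part in those values was not tested.

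Sums of markers of other cell types were also lower in every Cre+ library for neutrophils (9.03 to 11.1 CPM in Cre-, 7.10 to 7.88 CPM in Cre+, mostly S100a8), neurons (2.88 to 3.54 and 2.35 to 2.52 CPM) and fibroblasts and mural cells (1.66 to 2.36 and 0.860 to 1.18 CPM). Those of endothelial cells were higher (19.8 to 21.7 and 23.4 to 26.4 CPM, mostly Flt1). Sums overlapped between the groups for astrocytes (42.1 to 47.7 CPM over all 6 libraries), oligodendrocytes (69.6 to 82.8 CPM) and dendritic cells (3.24 to 5.01 CPM). The astrocyte sum was mostly Aldoc and Aldh1l1, and the oligodendrocyte sum mostly Cspg4 and Mbp. Under 1 CPM in every library were 5 of the 7 astrocyte markers, with Gfap at most 0.395 CPM. The same held for 5 of the 8 oligodendrocyte markers, with Olig2 at most 0.018 CPM.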
